A study of Homo sapiens with 8 samples.

Results

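The expression of 10 genes of the Notch pathway was followed after knockdown of SMARCB1 in a pair of liver cancer cell lines. The genes were the Fringe enzymes LFNG, MFNG and RFNG, the receptors NOTCH1, NOTCH2 and NOTCH3, the ligands JAG1 and JAG2, and the target genes HES1 and HEY1. They are 10 of the 20044 genes named on the array, and 18 of its 47319 probes carry their symbols. Every probe with one of these symbols was taken. The genes were picked with earlier results of these same arrays in view, and they were thus chosen on the knockdown-minus-control differences themselves. Their values are given as a description, with no p-value for a difference, and nothing is supported with them.

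Notch receptors are activated when a Delta or Jagged ligand on a neighbouring cell binds them, after which proteases cut the receptor and its intracellular part enters the nucleus. There it joins the DNA-binding protein RBPJ and Mastermind coactivators and switches on target genes, first among them the repressors of the HES and HEY families. Fringe enzymes add N-acetylglucosamine to O-fucose on the receptor, which changes its response to Delta and Jagged ligands. In the developing liver, JAG1 acting on NOTCH2 directs precursor cells to the bile duct fate, and mutations of either gene cause Alagille syndrome.

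Expression was measured on 8 Illumina arrays in 4 groups of 2, each array hybridised with labelled RNA made from 0.55 µg of total RNA. SK-Hep1 is an established line from a liver adenocarcinoma with endothelial features. It gave 2 control arrays (1 and 2, with shcon in their titles) and 2 arrays with stable knockdown of SMARCB1 (11 and 12). Huh7, an established hepatoma line, gave 2 control arrays (1 and 2, with GFP in their titles) and 2 knockdown arrays (3 and 4, both of which also carry the number 11). The SMARCB1 protein belongs to the core of SWI/SNF complexes, which remodel chromatin. The knockdown used short hairpin RNA. Selection with puromycin at 1.25 µg/mL is given for all 8 arrays, controls included. The control titles thus differ between the lines. The labels do not say whether the SK-Hep1 and Huh7 controls carried the same construct, nor whether 11 and 12 are separate hairpins. Both arrays of a group share a replicate number in the sample descriptions and may be technical repeats, in which case SEs and p-values measure technical spread only.

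The targeted gene SMARCB1 separated the groups in each line on its brighter probe, ILMN_1758823. The SK-Hep1 arrays lay at 10.61 and 10.68 without and at 9.30 and 9.67 with knockdown, and the Huh7 arrays at 10.84 and 10.94 without and at 9.22 and 9.27 with it. All levels are the log2 intensities of the authors' processed table. They hold almost no difference between the lines, since 0 of 12411 tested genes differed by more than 0.5 between the line means and the SD of that difference over genes was 0.029. Levels were therefore compared only within a line, and the markers of a line's cell type could not be checked against its label. A probe counted as above background when its mean over the 8 arrays exceeded 7.003, the 95th percentile of 637 probes for receptors and proteins that liver cells are not known to make. All 10 genes had at least 1 probe above that limit, and the brightest probe stood for each gene. Since the values hold almost no difference between the lines, passing the limit does not show that a gene was expressed in both.

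The promoter sequences of the genes with the widest differences are shown first, because RBPJ acts through the core motif TGGGAA. The 250 bases before the start were taken from RefSeq, build GRCh38.p14, for 9 windows of 8 of the 10 genes. No window of MFNG or HEY1 was examined, so whether these genes hold the motif was not tested. Each sequence shown is written 5′ to 3′ on the gene's strand with TGGGAA in capitals.
HES1 (chr3:194135898-194136147, plus strand): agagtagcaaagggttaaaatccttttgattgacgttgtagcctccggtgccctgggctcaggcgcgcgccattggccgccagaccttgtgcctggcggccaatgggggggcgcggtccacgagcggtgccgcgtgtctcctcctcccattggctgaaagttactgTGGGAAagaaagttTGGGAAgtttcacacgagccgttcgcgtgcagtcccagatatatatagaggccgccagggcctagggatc
LFNG, first start (chr7:2512279-2512528, plus strand): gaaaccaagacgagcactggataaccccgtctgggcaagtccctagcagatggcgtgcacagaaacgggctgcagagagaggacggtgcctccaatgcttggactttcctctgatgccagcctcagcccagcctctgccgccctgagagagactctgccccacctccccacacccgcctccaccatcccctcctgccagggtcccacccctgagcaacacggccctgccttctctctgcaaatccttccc
LFNG, second start (chr7:2517613-2517862, plus strand): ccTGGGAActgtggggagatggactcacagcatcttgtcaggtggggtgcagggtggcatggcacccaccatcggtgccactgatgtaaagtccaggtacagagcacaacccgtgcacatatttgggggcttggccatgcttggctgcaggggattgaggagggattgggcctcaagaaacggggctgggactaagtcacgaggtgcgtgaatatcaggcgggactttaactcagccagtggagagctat
NOTCH3 (chr19:15200996-15201245, minus strand): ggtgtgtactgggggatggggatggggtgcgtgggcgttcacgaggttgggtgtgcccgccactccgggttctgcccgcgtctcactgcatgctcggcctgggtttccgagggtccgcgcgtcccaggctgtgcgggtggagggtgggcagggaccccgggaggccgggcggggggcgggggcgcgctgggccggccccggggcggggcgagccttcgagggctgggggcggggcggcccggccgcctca
HES1, the classical direct target of Notch signalling, holds TGGGAA at 84 and 70 bases before its start, both on the gene's own strand. The second LFNG window holds it at 248 bases, and the first LFNG window and that of NOTCH3 hold it on neither strand, where it would read TTCCCA. The other 5 windows, of RFNG, NOTCH1, NOTCH2, JAG1 and JAG2, did not hold it either. Of all 35116 RefSeq windows of the same length, 20.8% hold the motif on either strand and 2.90% hold it 2 or more times. A match to 6 letters is a description of the sequence and not a site of binding.

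LFNG had the widest difference of the 10 genes in each line, and it ran in opposite directions. Its brightest probe, ILMN_1663080, read 7.81 and 7.78 in SK-Hep1 controls and 8.98 and 8.94 after knockdown. In Huh7 the same probe read 9.07 and 8.97 in controls and 7.70 and 7.68 after knockdown. The groups did not overlap in either line, and the nearest arrays of the groups lay 1.13 apart in SK-Hep1 and 1.28 apart in Huh7, against at most 0.1003 between arrays of one group. In SK-Hep1 the knockdown mean was higher by 1.17 ± 0.0673 (SE, n = 2 arrays per group), or 2.24-fold. In Huh7 the log2 difference was -1.33 ± 0.0673, which left 39.6% of the control signal. Subtracting the Huh7 from the SK-Hep1 difference gave 2.50 ± 0.0952, the 3rd highest such value among the 12411 genes. LFNG was the 31st highest of all genes in SK-Hep1 and the 31st lowest in Huh7. These are measurements of bulk RNA, in which a change in the share of cells that make a transcript and a change in RNA per cell cannot be told apart.

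**Figure D1:**
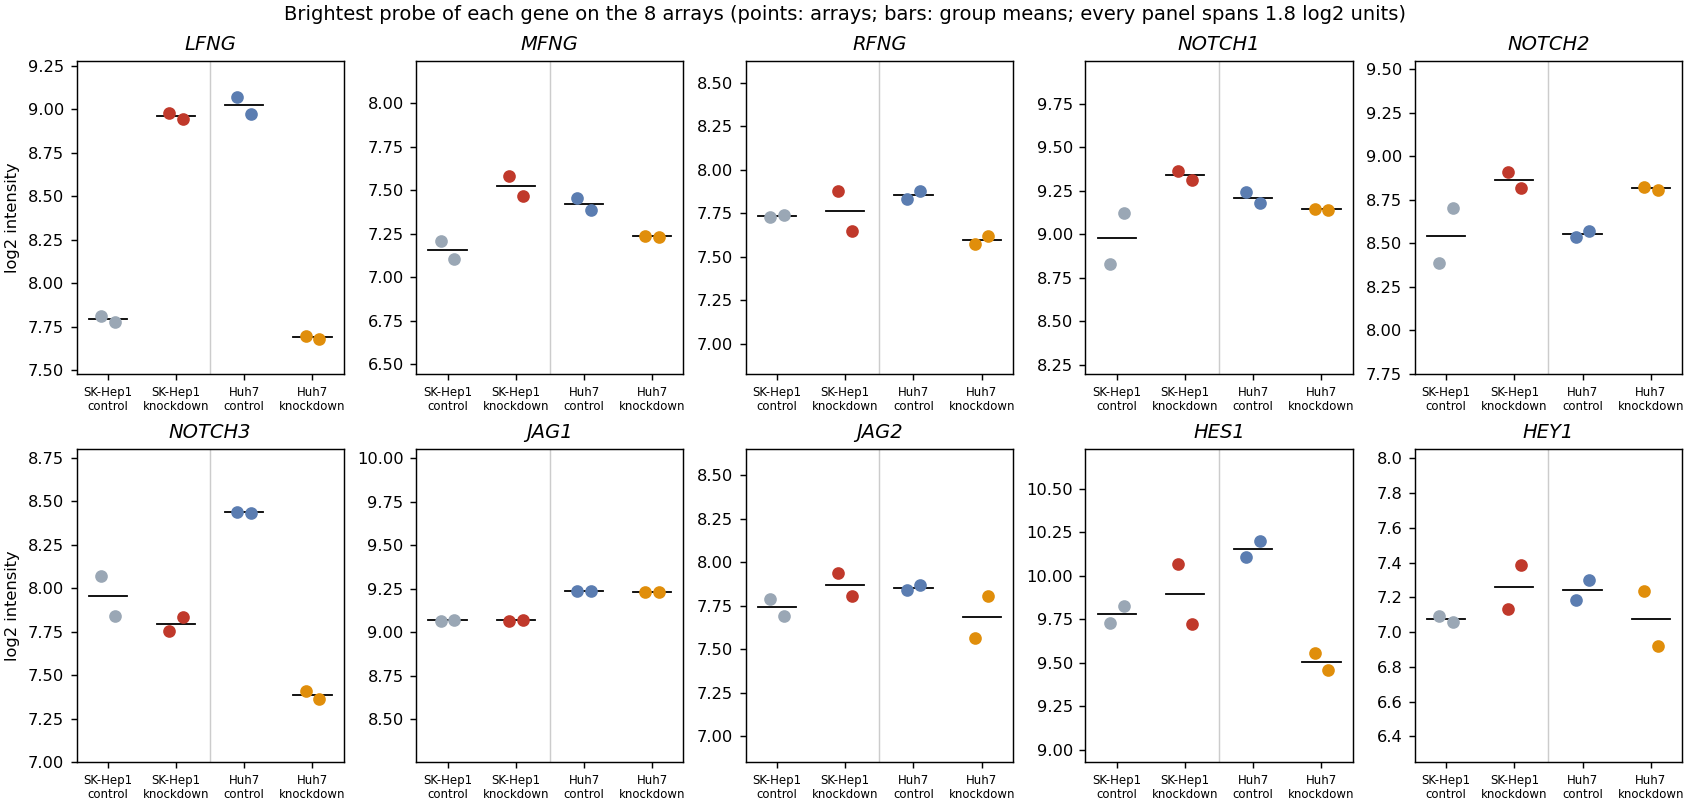
Log2 intensity of the brightest probe of each of the 10 genes on the 8 arrays, with 1 point per array, a bar at each group mean and 1.8 log2 units on every vertical axis. LFNG is higher on the SK-Hep1 knockdown arrays (8.94 and 8.98) than on their controls (7.78 and 7.81) and lower on the Huh7 knockdown arrays (7.68 and 7.70) than on theirs (8.97 and 9.07), while the points of JAG1 lie almost on a line within each cell line.

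The remaining LFNG probes, ILMN_2268156 and ILMN_2360401, had means of 6.99 and 6.91, below the background limit. Both are annotated to another LFNG transcript than ILMN_1663080. Their differences were 0.07 and 0.03 in SK-Hep1, where knockdown and control arrays overlapped, and -0.14 and -0.20 in Huh7, where they did not. The pattern of LFNG therefore stands on 1 probe, and probes this dim have only a bound.

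MFNG, the second Fringe enzyme, read 7.21 and 7.11 in SK-Hep1 controls and 7.58 and 7.47 after knockdown. The Huh7 values were 7.46 and 7.39 in controls and 7.24 and 7.23 after knockdown. Its groups did not overlap in either line, with differences of 0.37 ± 0.0731 in SK-Hep1 and -0.19 ± 0.0731 in Huh7. MFNG therefore ran in the directions of LFNG with smaller differences, and its values lay close to the background limit, where fold changes are understated if background is part of the signal. RFNG, the third, read 7.73 and 7.74 in SK-Hep1 controls and 7.88 and 7.64 after knockdown on ILMN_2304996, so the knockdown arrays lay on either side of the controls. In Huh7 RFNG read 7.83 and 7.88 in controls and 7.57 and 7.62 after knockdown, a difference of -0.26 ± 0.0826. The dimmer RFNG probe, ILMN_1661427, overlapped between the groups in both lines (-0.12 and -0.06).

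Among the receptors, NOTCH3 had the widest difference, in Huh7. NOTCH3 read 8.44 and 8.43 in Huh7 controls and 7.41 and 7.36 after knockdown. The difference of -1.05 ± 0.0831 left 48.2% of the control signal, and the groups lay 1.03 apart at their nearest arrays. In SK-Hep1 NOTCH3 read 8.07 and 7.84 in controls and 7.75 and 7.83 after knockdown. That difference was -0.16 ± 0.0831, and the nearest arrays were only 0.0059 apart. NOTCH3 stood 74th lowest of the 12411 genes in Huh7 and 2511th lowest in SK-Hep1. The SK-Hep1 difference exceeded the Huh7 difference by 0.89 ± 0.118.

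NOTCH1 read 8.83 and 9.12 in SK-Hep1 controls and 9.36 and 9.31 after knockdown. In Huh7 NOTCH1 read 9.24 and 9.18 in controls and 9.14 on both knockdown arrays. The differences were 0.36 ± 0.0914 in SK-Hep1 and -0.07 ± 0.0914 in Huh7. The SK-Hep1 controls of NOTCH1 were 0.292 apart, wider than the 0.193 between the nearest arrays of the groups, and the difference was 0.22 without control 1. NOTCH2 was the receptor that was higher after knockdown in both lines. On ILMN_2405297 it read 8.39 and 8.70 in SK-Hep1 controls and 8.91 and 8.82 after knockdown, a difference of 0.32 ± 0.096. In Huh7 NOTCH2 read 8.53 and 8.57 in controls and 8.82 and 8.81 after knockdown, a difference of 0.26 ± 0.096. Here too the SK-Hep1 controls were wide apart, by 0.314, and without control 1 the NOTCH2 difference was 0.16. The NOTCH2 probes ILMN_1777845 and ILMN_1777758 were below background, with differences of -0.18 and 0.12 in SK-Hep1 and 0.06 and 0.18 in Huh7. The genome holds near-identical partial copies of NOTCH2, the NOTCH2NL genes, and which of them a probe also reads is not given in the sources used here.

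**Figure D2:**
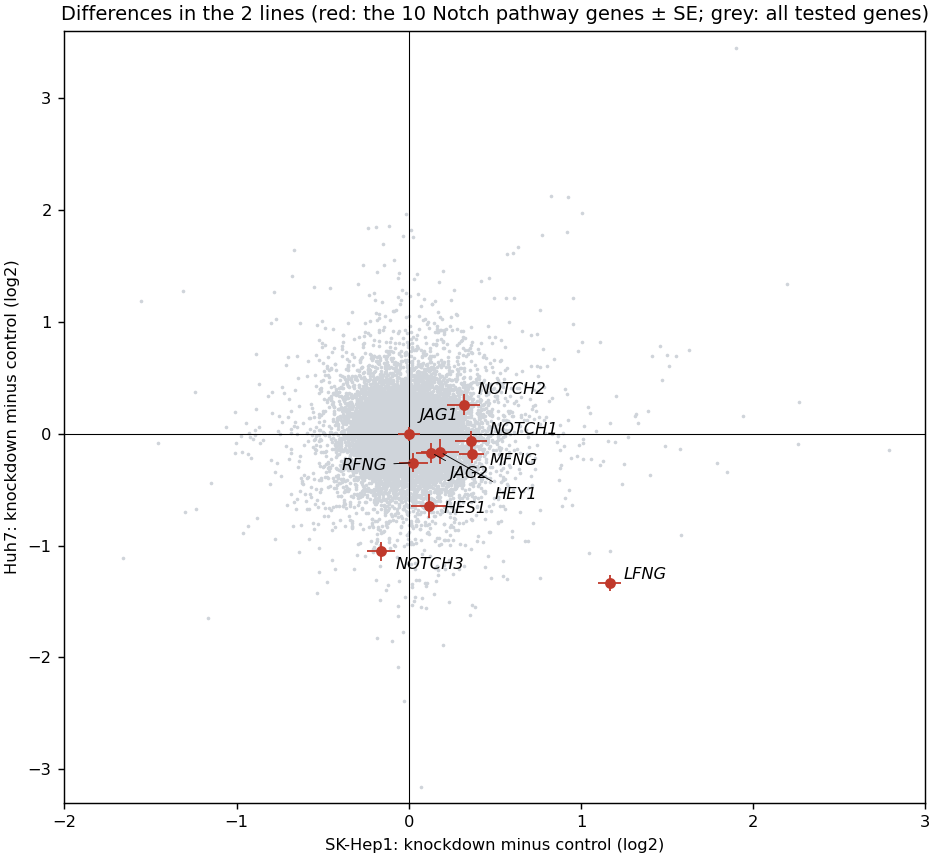
Log2 difference, knockdown minus control, in SK-Hep1 (horizontal axis) and Huh7 (vertical axis) for the 10 genes with SE bars in red and for all 12411 tested genes in grey. Of the 10 genes, LFNG is the one far to the lower right (1.17, -1.33), NOTCH3 and HES1 lie low near the vertical line, and NOTCH2 is positive on both axes.

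JAG2, a ligand, read 7.79 and 7.69 in SK-Hep1 controls and 7.94 and 7.81 after knockdown on ILMN_1764729. In Huh7 JAG2 read 7.84 and 7.87 in controls and 7.56 and 7.80 after knockdown. The groups did not overlap in either line, by margins of 0.019 and 0.0345, and the differences of 0.13 ± 0.0894 and -0.17 ± 0.0894 did not pass the threshold used for all genes. Single arrays moved them, to 0.07 in SK-Hep1 without knockdown 11 and to -0.05 in Huh7 without knockdown 3. The second JAG2 probe, ILMN_2399523, gave 0.13 in SK-Hep1 and -0.05 in Huh7, and ILMN_1658925 was below background.

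JAG1, the ligand tied to bile duct formation, gave values that could not be read as a measurement of change. Its only probe, ILMN_1691376, read 9.07 on all 4 SK-Hep1 arrays, 9.24 on both Huh7 controls and 9.23 on both Huh7 knockdown arrays. The whole range was 0.00364 over the SK-Hep1 arrays and 0.0053 over the Huh7 arrays. For comparison, the median range of the 21440 probes above background was 0.252 in SK-Hep1 and 0.251 in Huh7. The JAG1 probe was one of 29 such probes, 23 of them with a gene name, whose range was under 0.02 in both lines. That limit was set after the values had been seen. These 29 probes also kept a difference between the line means of 0.0822 to 0.312 in size, against a median of 0.00995 for the rest. The probe thus varied far less than replicate arrays do for other genes, and the near-zero differences of JAG1 (0.0009 and -0.005) do not show that JAG1 was unaffected. The cause was not tested.

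**Figure D3:**
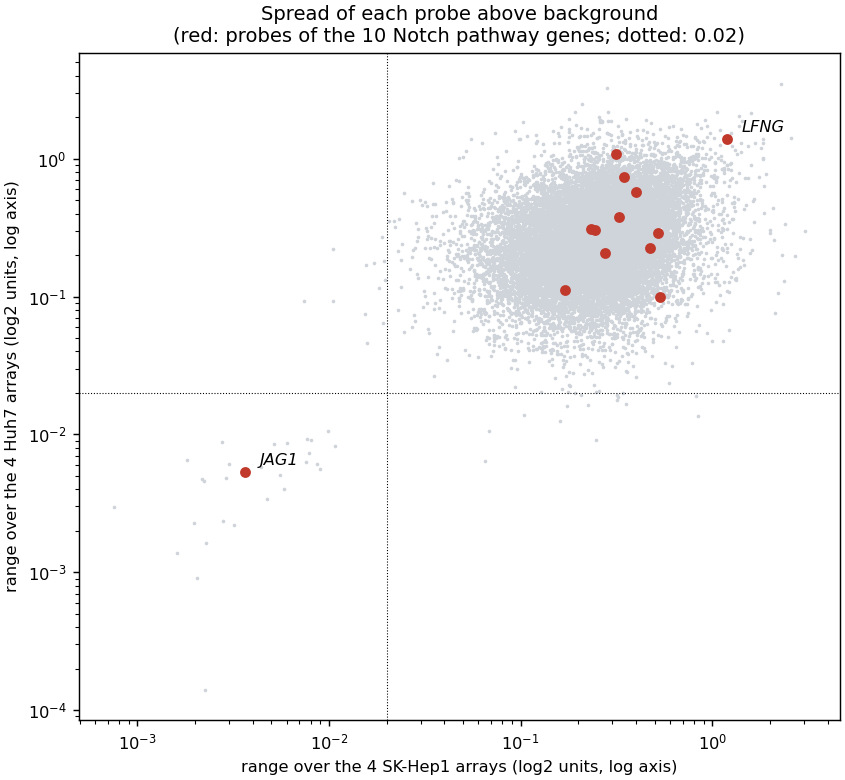
Range of each probe above background over the 4 SK-Hep1 arrays (horizontal axis) and the 4 Huh7 arrays (vertical axis), in log2 units on log axes, with the probes of the 10 genes in red and dotted lines at 0.02. JAG1 (0.00364, 0.0053) sits in a small group of 29 probes at the lower left, and LFNG has the widest ranges of the 10 genes in both lines.

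Of the target genes, HES1 was lower in Huh7 after knockdown. HES1 read 10.11 and 10.20 in Huh7 controls and 9.55 and 9.46 after knockdown. The groups were 0.552 apart, and the difference of -0.65 ± 0.105 left 63.9% of the control signal. In SK-Hep1 HES1 read 9.73 and 9.83 in controls and 10.07 and 9.72 after knockdown. There the knockdown arrays enclosed the controls, the difference was 0.12 ± 0.105, and it was -0.06 without knockdown 11. The SK-Hep1 difference of HES1 exceeded its Huh7 difference by 0.76 ± 0.148.

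HEY1, the other target, was near background. Its brighter probe, ILMN_2407308, read 7.10 and 7.06 in SK-Hep1 controls and 7.13 and 7.38 after knockdown, and in Huh7 7.18 and 7.30 in controls and 7.24 and 6.92 after knockdown. The differences were 0.18 ± 0.112 and -0.16 ± 0.112, with overlapping groups in Huh7. The second HEY1 probe, ILMN_1788203, had nearly the same mean (7.10 against 7.16) and a clearer separation. This probe read 6.88 and 6.96 in SK-Hep1 controls and 7.28 and 7.26 after knockdown. The Huh7 values were 7.37 and 7.32 in controls and 6.93 and 6.80 after knockdown. Its differences were 0.35 ± 0.0752 and -0.48 ± 0.0752, in the directions of LFNG. Both passed the all-probe threshold in a fit of every probe, as did the mean of the HEY1 probes (0.27 and -0.32), so whether HEY1 counts as different depends on how its probes are combined.

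**Figure D4:**
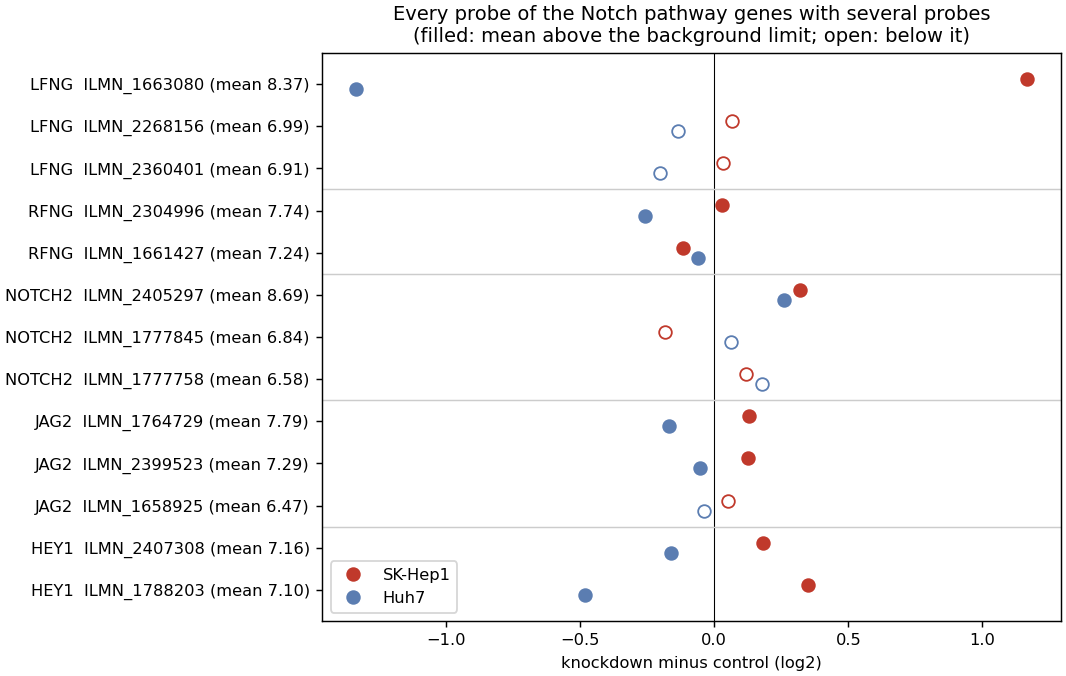
Log2 difference, knockdown minus control, of every probe of the 5 genes with several probes, with SK-Hep1 in red, Huh7 in blue and open circles for probes below the background limit. The wide differences of LFNG are seen on ILMN_1663080 alone, and the 2 HEY1 probes of nearly equal brightness differ in size.

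Counted over the 10 genes at an adjusted p under 0.05 over all genes tested, 4 were higher and 0 lower in SK-Hep1. Of all genes, 16.8% passed there, 8.31% as higher and 8.54% as lower. The 4 were LFNG, MFNG, NOTCH1 and NOTCH2. In Huh7, 0 were higher and 4 lower, namely LFNG, NOTCH3, HES1 and RFNG, where 38.9% of all genes passed, 19.4% as higher and 19.5% as lower. Between the lines, LFNG, MFNG, NOTCH1, NOTCH3 and HES1 had a higher SK-Hep1 than Huh7 difference past the threshold, and 31.3% of all genes passed, 15.2% as higher and 16.1% as lower. The median difference of the 10 genes was 0.156 in SK-Hep1 and -0.177 in Huh7, beside -0.0095 and 0.0006 over all genes. LFNG was the only one of the 10 past the threshold in both lines, as higher in SK-Hep1 and lower in Huh7, a combination found for 263 genes (2.12%).

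By non-overlap of the arrays, 6 of the 10 genes lay higher on both SK-Hep1 knockdown arrays than on both controls (26.0% of all genes), 1 lay lower (28.7% of all genes) and 3 overlapped. In Huh7, 1 lay higher (37.4% of all genes), 8 lay lower (37.2% of all genes) and 1 overlapped. The gene that lay lower in SK-Hep1 was NOTCH3, and the gene that lay higher in Huh7 was NOTCH2. JAG1 is among the 8, by 0.0041. The genes were chosen with these differences in view, so the counts are read against the background for description only.

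Several of these calls rested on single arrays, while LFNG, NOTCH3 and HES1 kept theirs whichever array was left out. The genes were chosen on these differences, so a kept call describes the arrays and is no support. The MFNG call in SK-Hep1 was lost without control 2 (0.31). The NOTCH1 call was lost without control 1 (0.22) or knockdown 11 (0.34), and the NOTCH2 call without any 1 of 7 of the 8 arrays (0.16 to 0.37 in those cases). The RFNG call in Huh7 was lost without any 1 of the 4 Huh7 arrays (-0.28 to -0.23).

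The rest of the pathway was followed in 6 further lists with 71 genes, of which 66 were analysed here and 56 were above background. These lists, and the cell type markers given below, were also chosen with earlier results of these arrays known. Their shares and adjusted p-values are therefore a description and no independent support. In SK-Hep1, 10 of the 56 rose and 7 fell, together 30.4%, beside 16.8% of all genes. In Huh7, 16 rose and 13 fell, together 51.8%, beside 38.9%. The medians of the 56 were 0.042 and 0.002. Movement was thus in both directions in each line, and CREBBP, GXYLT1, KRT19 and SOX9 passed in both lines with opposite signs.

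Of the other receptors and ligands, 4 of 7 were above background by their mean over the 8 arrays, and NOTCH4, DLL4 and DLK1 were below it and not tested. DLK1, an atypical ligand, was below it on that mean only, a case named after its values were seen. Its probe ILMN_1797519 read 7.52 and 7.46 in Huh7 controls, above the limit, and 6.15 and 6.12 after knockdown, a difference of -1.35 that is a description with no test. In SK-Hep1 all 4 arrays of that probe lay below the limit, and the second DLK1 probe, ILMN_1652975, lay below it on all 8. The values hold almost no difference between the lines, so the limit does not show which line had more DLK1. DNER, which encodes a neuronal transmembrane protein described as a Notch ligand, rose in SK-Hep1 from 9.06 and 9.12 to 9.58 and 9.51 (0.46 ± 0.0661, adjusted p = 0.00159). DLL3, a Delta family member that inhibits Notch signalling within the cell, fell in Huh7 from 9.59 and 9.48 to 9.24 and 9.17 (-0.33 ± 0.0752, adjusted p = 0.0066). The DLL3 call was lost without Huh7 control 1 (-0.27, adjusted p = 0.0716) or knockdown 4 (-0.29, adjusted p = 0.0587).

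Of 13 genes that modify or cut the receptor, 4 rose and 0 fell in SK-Hep1, beside 8.31% and 8.54% of all genes, and 5 rose and 2 fell in Huh7, beside 19.4% and 19.5%. PSEN2, a catalytic subunit of the gamma-secretase that releases the intracellular domain, rose by 0.33 ± 0.0668 in SK-Hep1 (adjusted p = 0.00805) and by 0.29 ± 0.0668 in Huh7 (adjusted p = 0.00633). FURIN, the convertase of receptor maturation, rose by 0.45 (adjusted p = 0.0162) and 0.35 (adjusted p = 0.0235). EOGT, which attaches N-acetylglucosamine to EGF repeats, rose by 0.31 (adjusted p = 0.0343) and 0.45 (adjusted p = 0.00275), and its second probe gave 0.37 and 0.45. GXYLT1, which extends O-glucose on the same repeats with xylose, rose in SK-Hep1 from 8.70 and 8.82 to 9.11 and 9.56 (0.58 ± 0.121, adjusted p = 0.0103). In Huh7 it fell from 9.32 and 9.27 to 8.80 and 8.84 (-0.47 ± 0.121, adjusted p = 0.0114), and the difference between the lines was 1.05 ± 0.171.

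In each line some of these calls needed every array. The SK-Hep1 calls were lost without control 1 for PSEN2 (0.30, adjusted p = 0.0594) and GXYLT1 (0.52, adjusted p = 0.0846). The GXYLT1 difference was 0.35 without knockdown 12, with the call kept. FURIN lost its SK-Hep1 call without control 2 (0.38, adjusted p = 0.103) or knockdown 11 (0.29, adjusted p = 0.0517), and EOGT in 5 of the 8 cases (adjusted p up to 0.143; 0.20 without knockdown 11). In Huh7, GXYLT1 lost its call without control 1 (-0.45, adjusted p = 0.0691) or knockdown 3 (-0.45, adjusted p = 0.0609), PSEN2 without knockdown 4 (0.26, adjusted p = 0.0599), and FURIN without control 1 or either knockdown array (0.28 to 0.35, adjusted p up to 0.155). The EOGT call in Huh7 held in each case.

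In the nuclear complex, 1 of 15 rose and 2 fell in SK-Hep1, and 4 rose and 2 fell in Huh7. These shares, 20% and 40%, are close to the 16.8% and 38.9% of all genes. The gene that rose in SK-Hep1 was KAT2B, a histone acetyltransferase (0.36 ± 0.0945, adjusted p = 0.0281), a call lost without control 1 (0.24, adjusted p = 0.181) or knockdown 12 (0.26, adjusted p = 0.12). Among the Groucho-type corepressors, both directions were seen. TLE2 fell in Huh7 from 8.60 and 8.54 to 7.43 and 7.71 (-0.998 ± 0.0988, adjusted p = 4.9e-05), TLE1 rose there by 0.43 ± 0.0753 (adjusted p = 0.00152), and TLE4 fell in SK-Hep1 by 0.44 ± 0.0776 (adjusted p = 0.00458) and in Huh7 by 0.48 ± 0.0776 (adjusted p = 0.00092). The second TLE4 probe gave -0.33 and -0.39. CREBBP, a histone acetyltransferase recruited by the Notch complex, fell by 0.29 ± 0.0673 in SK-Hep1 (adjusted p = 0.0162) and rose by 0.42 ± 0.0673 in Huh7 (adjusted p = 0.000893). The SK-Hep1 call of CREBBP was lost without control 2 (-0.26, adjusted p = 0.0813), and its dimmer probe gave -0.15 and 0.08. RBPJ itself gave 0.06 in SK-Hep1 (adjusted p = 0.725) and rose by 0.31 in Huh7 (adjusted p = 0.0291), a call lost without any 1 of the 4 Huh7 arrays (adjusted p up to 0.144).

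Of 12 genes of endocytosis and turnover, 1 rose and 4 fell in Huh7, and 1 rose and 0 fell in SK-Hep1, together 41.7% and 8.33% beside 38.9% and 16.8% of all genes. DTX1, a ubiquitin ligase of the Deltex family, fell in Huh7 from 7.53 and 7.57 to 6.98 and 6.88 (-0.62 ± 0.113, adjusted p = 0.00195). MIB1, the ubiquitin ligase that drives ligand endocytosis, fell there by 0.31 (adjusted p = 0.00382). The DTX1 and MIB1 calls held whichever array was left out. DTX3L, a ubiquitin ligase related to DTX1, was the gene of this list that rose in Huh7, from 7.60 and 7.498 to 7.87 and 8.01 (0.39 ± 0.101, adjusted p = 0.0118). Its call was lost without control 2 (0.34, adjusted p = 0.0875) or knockdown 4 (0.32, adjusted p = 0.0929).

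**Figure D5:**
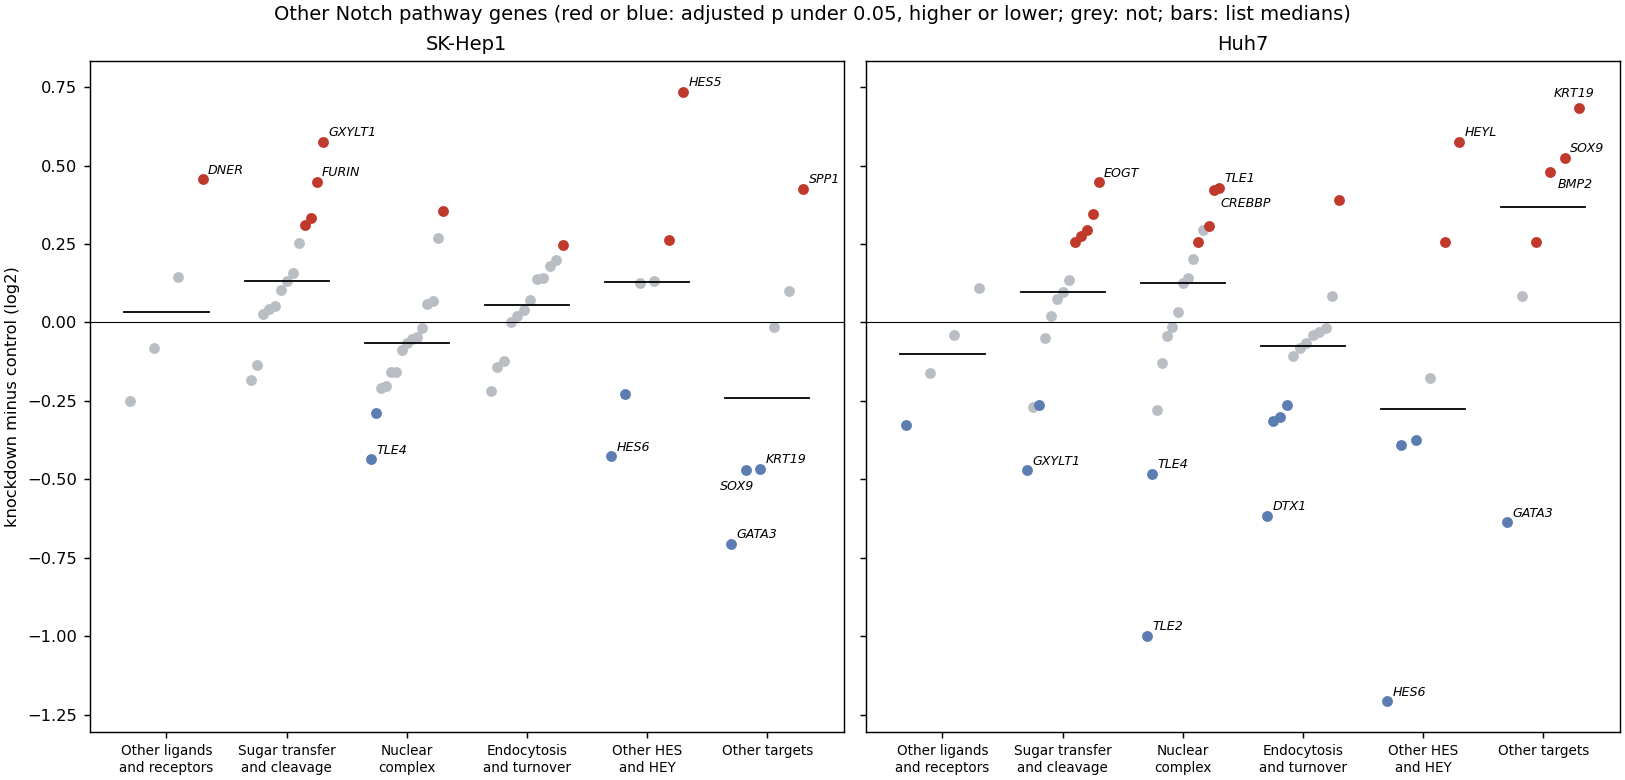
Log2 difference, knockdown minus control, of the 56 tested genes of the 6 other Notch pathway lists in SK-Hep1 (left) and Huh7 (right), with red or blue for an adjusted p under 0.05, grey otherwise and bars at list medians. HES6 and TLE2 are the lowest points in Huh7 (-1.21 and -0.998), and KRT19 and SOX9 are low in SK-Hep1 and high in Huh7.

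Other HES and HEY genes moved in both directions. In SK-Hep1, 2 of 6 rose and 2 fell, together 66.7%, beside 16.8% of all genes. In Huh7, 2 rose and 3 fell, together 83.3%, beside 38.9%. HES6, which encodes a HES protein known to oppose HES1, read 9.03 and 9.35 in SK-Hep1 controls and 8.84 and 8.69 after knockdown (-0.43 ± 0.1, adjusted p = 0.0172). In Huh7 HES6 fell from 9.60 and 9.58 to 8.35 and 8.41 (-1.21 ± 0.1, adjusted p = 1.51e-05). HES5, a direct Notch target in neural cells, rose in SK-Hep1 from 7.07 and 7.01 to 7.69 and 7.86 (0.74 ± 0.0812, adjusted p = 0.000339). In Huh7 HES5 rose by 0.26 (adjusted p = 0.0292). HEYL, a direct target of NOTCH3 signalling in smooth muscle, rose in Huh7 from 8.51 and 8.41 to 9.07 and 9.003 (0.58 ± 0.0857, adjusted p = 0.000579), where NOTCH3 and HES1 were lower. HES2 fell in Huh7 from 7.21 and 7.22 to 6.82 and 6.83 (-0.39 ± 0.0634, adjusted p = 0.000976), with values near background. Its SK-Hep1 call as lower (-0.23 ± 0.0634, adjusted p = 0.0346) was lost without any 1 of 7 of the 8 arrays. HEY2 passed as higher in SK-Hep1 (0.26 ± 0.0789, adjusted p = 0.0468), a call lost whichever array was left out. HES4 fell in Huh7 (-0.37 ± 0.113, adjusted p = 0.024), a call lost in 3 of the 8 cases with 1 array left out. The HES6 call in SK-Hep1 was lost without control 2 (-0.27, adjusted p = 0.0968) or knockdown 12 (-0.35, adjusted p = 0.0717), and the HES5 call in Huh7 without any 1 Huh7 array (0.20 to 0.31, adjusted p up to 0.177).

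Of the remaining targets, 1 of 6 rose and 3 fell in SK-Hep1, together 66.7%, beside 16.8% of all genes. In Huh7, 4 rose and 1 fell, together 83.3%, beside 38.9%. GATA3, a transcription factor induced by Notch in T cells, fell in both lines, from 8.43 and 8.30 to 7.69 and 7.63 in SK-Hep1 (-0.70 ± 0.0762, adjusted p = 0.000305) and from 8.26 and 8.33 to 7.60 and 7.72 in Huh7 (-0.64 ± 0.0762, adjusted p = 0.000157). BMP2, a bone morphogenetic protein gene, rose in Huh7 by 0.48 ± 0.0807 (adjusted p = 0.00119). SPP1, the osteopontin gene, rose by 0.43 in SK-Hep1 (adjusted p = 0.00395) and by 0.26 in Huh7 (adjusted p = 0.0187), the latter lost without any 1 Huh7 array (adjusted p up to 0.108). KRT19, a keratin of bile duct cells, fell in SK-Hep1 from 12.53 and 12.43 to 12.09 and 11.94 (-0.47 ± 0.0752, adjusted p = 0.00291). In Huh7 KRT19 rose from 11.89 and 11.86 to 12.56 on both arrays (0.68 ± 0.0752, adjusted p = 9.43e-05). SOX9, a bile duct transcription factor and Notch target in the liver, fell by 0.47 ± 0.126 in SK-Hep1 (adjusted p = 0.0296) and rose by 0.52 ± 0.126 in Huh7 (adjusted p = 0.00846). The SOX9 call in SK-Hep1 was lost without control 1, control 2 or knockdown 12 (adjusted p up to 0.129; -0.23 without knockdown 12), and that in Huh7 without control 1 (0.48, adjusted p = 0.0609) or knockdown 4 (0.49, adjusted p = 0.0553).

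KRT19 and SOX9 thus ran opposite to LFNG in both lines, and so did the bile duct marker EPCAM. Of the 5 bile duct markers tested, EPCAM, KRT19 and SOX9 passed as lower in SK-Hep1 and as higher in Huh7. Among all genes, 8.54% passed as lower in SK-Hep1 and 19.4% as higher in Huh7. The remaining markers, KRT7 (0.10 and 0.08) and CFTR (0.19 and -0.25), passed in neither line. Their summed signal on the linear scale ran from 11965 to 12050 in SK-Hep1 controls, 7957 to 9450 in SK-Hep1 knockdown, 7993 to 8068 in Huh7 controls and 12855 to 13020 in Huh7 knockdown. The immune markers CD14 and CD68 summed to 1986 to 2091, 3265 to 3436, 2908 to 2912 and 2171 to 2346 in the same order, while PTPRC, CD3E and NKG7 were below background. For 7 hepatocyte markers the sums were 11411 to 11598, 13398 to 13562, 13899 to 14020 and 14310 to 14744. Of 6 endothelial markers, CDH5, VWF, KDR and TEK were below background, and PECAM1 and ENG summed to 421 to 452, 525 to 532, 465 to 506 and 430 to 445. The part of these markers in the values of LFNG and the other genes was not tested.

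The genes whose pattern lay nearest to that of LFNG were found by the root mean square distance over the 8 arrays, with each array's value taken relative to the control mean of its line. They were CD14 (distance 0.187), AGTR1 (0.189), AOX1 (0.215), CAPN5 (0.310) and ZNF467 (0.317). CD14, the lipopolysaccharide coreceptor, differed by 1.04 in SK-Hep1 and -1.07 in Huh7. AGTR1, the angiotensin II receptor gene, differed by 1.17 and -1.04. AOX1, the aldehyde oxidase gene, differed by 0.76 and -1.29, CAPN5, a calpain gene, by 0.67 and -0.96, and ZNF467 by 0.57 and -1.30. None of the 5 belongs to the Notch lists, and likeness over 8 arrays in 4 groups describes these arrays only.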

How the data were processed

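The 8 arrays were read from the authors' processed table, which holds deposited log2 intensities for 47319 probes. The submitters' processing notes name GenomeStudio 2011.1, and the sources used here do not give the normalization or background treatment. A second table, of signals before normalization, was left out because its 16 value columns match no label, so detection p-values and slides could not enter. By the platform annotation, 30110 probes had 1 gene symbol, 8 had several and 17201 had none. The background limit, 7.003, was the 95th percentile of 637 probes for beta-defensins, keratin-associated proteins and olfactory, vomeronasal and taste receptors. Above it lay 21440 probes of 12411 genes.

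Knockdown minus control was fitted with limma 3.58.1 (R 4.3.3, lmFit, eBayes, two-sided) over 4 group means, leaving 4 residual degrees of freedom. Benjamini-Hochberg adjustment covered all 12411 genes, and 0.05 was the limit for a call. The fit was tested on simulated data. The 10 genes and all lists were chosen with earlier results of these data known. Genes named from the other lists were among the 4 largest past the limit in their list and line, in at least 1 line, though not every such gene is given. RBPJ and DLK1 were added after their values were seen. Alternatives were a stricter filter, no filter, the mean of a gene's probes, renormalization, median centring, an intensity trend, array weights, a fit of 1 line alone, every probe as its own row and leaving out each array. Precision is limited by the number of arrays.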

Additional observations from a re-analysis of the deposited data

Results flagged for a closer look

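The difference between knockdown and control was set against that of the other line (SK-Hep1 minus Huh7, on the log2 scale). The widest such values among the 10 Notch pathway genes were 2.50 ± 0.0952 (SE) for LFNG, 0.89 ± 0.118 for NOTCH3, 0.76 ± 0.148 for HES1, 0.55 ± 0.103 for MFNG and 0.43 ± 0.129 for NOTCH1. These genes were chosen on the same differences, so the values are a description and no test of them is given. The NOTCH1 value was 0.28 without SK-Hep1 control 1.

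For other genes, limma gave the difference between the lines. GXYLT1, CREBBP, KRT19 and SOX9 were those that had passed in both lines with opposite signs. A wide difference between the lines follows from that choice, so their adjusted p-values are a description and no further support. The difference was 1.05 ± 0.171 for GXYLT1 (adjusted p = 0.0015), -0.71 ± 0.0952 for CREBBP (adjusted p = 0.000511), -1.15 ± 0.106 for KRT19 (adjusted p = 5.7e-05) and -0.99 ± 0.179 for SOX9 (adjusted p = 0.00257). Each of these 4 kept its call whichever array was left out. For SMARCB1, the targeted gene, it was 0.48 ± 0.152 (adjusted p = 0.035), with the deeper fall in Huh7, and in 7 of the 8 cases with 1 array left out it missed the threshold (0.30 to 0.53). The exception was the case without SK-Hep1 knockdown 11 (0.67).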

How the results depend on the processing

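Over the 10 genes, 442 of 494 values under an alternative kept their direction and their side of the threshold. Of the rest, 26 fell short of it, 19 passed it newly and 7 changed sign. Some of the 442 could not have changed direction. The difference within a line stays the same with an array of the other line left out, an intensity trend or 1 line fitted alone. A value short of the threshold in both fits also counts as kept. The share is therefore no measure of robustness. LFNG kept direction and call in each alternative, which is a description, since it was chosen on these differences. The sign changed for RFNG in SK-Hep1 with the mean of its probes (-0.044) and for JAG1 with renormalization in Huh7 (0.00090) or median centring in SK-Hep1 (-4.65e-05). Leaving out 1 array changed it in the ranges -0.089 to 0.14 for RFNG, -0.056 to 0.29 for HES1 and -0.00091 to 0.0027 for JAG1, all in SK-Hep1, and -0.0996 to 0.21 for the difference between lines of NOTCH2. The causes were not tested.

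In SK-Hep1, 2091 genes passed, but 1198 with array weights, 1086 with SK-Hep1 fitted alone and 927 to 2443 with 1 array left out, the lowest without control 1. In Huh7, 4833 passed, with 6359 under array weights, 6066 with Huh7 fitted alone and 2877 to 5606 with 1 array left out. For the difference between lines, 3890 passed, and 2530 to 4491 with 1 array left out. Of the 56 other Notch genes, 10 rose in SK-Hep1, but 6 with array weights, 6 with the line fitted alone and 4 to 8 with 1 array left out. The 7 that fell became 4 with the line fitted alone and 3 to 7 with 1 array left out. In Huh7 leaving out 1 array gave 6 to 18 in place of 16 that rose and 7 to 14 in place of 13 that fell. Fewer arrays give the fit fewer residual degrees of freedom.

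No paired analysis was possible because the knockdown and control arrays of a line share no replicate number. Background correction with detection p-values and a slide block were not run, since the columns that would give them match no label. Dim probes, HEY1 and MFNG among them, have compressed differences if background is part of the values. With 2 arrays per group, a difference that misses the threshold does not show that a gene stayed level.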
